A study of Mus musculus with 12 samples.

Results

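Endurance training was compared with no training in type I myofibers, the slow fibres taken here from mouse soleus, by RNA sequencing of 3 trained and 3 untrained libraries. These 6 libraries were chosen by their titles out of 12 in the series, the other 6 being type IIb fibres of extensor digitorum longus. All mice were male C57BL/6J with a labelled age of 8 weeks, with no allele or agent named, and whether that age is before or after training is not given in the sources used here. Trained mice ran on a treadmill 5 days a week for 6 weeks, 60 min a day at 12 to 16 m/min, and were killed 3 days after their last run. Untrained mice were the controls. Every soleus was digested with collagenase (2 mg/ml, 37 °C, 90 min), each fibre was cut, and the myosin protein of one piece gave its type while RNA of the other piece was amplified with the SMART-Seq HT kit. How many fibres or mice entered a library is not given in the sources used here, so the spread behind each p-value is that between libraries and may be technical. For single genes that spread was estimated over all 12 libraries, type IIb included. The comparison asks which transcripts of slow fibres differ after a training period.

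Type I fibres contract slowly, resist fatigue and burn fat and glucose in many mitochondria. They carry the slow myosin heavy chain Myh7 and slow isoforms of the other contractile proteins. Endurance running is known to raise mitochondrial content and capillary supply of muscle, with the coactivator Ppargc1a as a central regulator, and single bouts switch on immediate early genes for a short time.

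The libraries of one group differed widely. Untrained libraries 1, 2 and 3 held 11726789, 13130381 and 24995288 counts and trained libraries 9692597, 10124294 and 13919488 counts. Genes with at least 10 counts numbered 11703, 9711 and 14428 untrained and 6082, 6517 and 11852 trained, a difference in means of -3797 (exact two-sided permutation test, p = 0.3, where 3 against 3 cannot go below 0.1). Mitochondrial transcripts took 16.5, 21.7 and 14.6% of untrained and 19.2, 34.7 and 5.86% of trained counts. Summed endothelial markers without Cd36, which muscle fibres also express, came to 2092, 73.1 and 1034 CPM (counts divided by the library total, scaled to 1e+06 counts) untrained and 1.96, 228 and 13.6 CPM trained. Fibroblast markers came to 427, 27.0 and 9713 CPM and 138, 77.6 and 59.2 CPM. Untrained libraries 1 and 3 therefore stood apart by markers of other cells, and trained libraries 1 and 2 by few detected genes. Leaving out 2 libraries of a group leaves 1, which is then assumed to vary like the other groups.

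**Figure D1:**
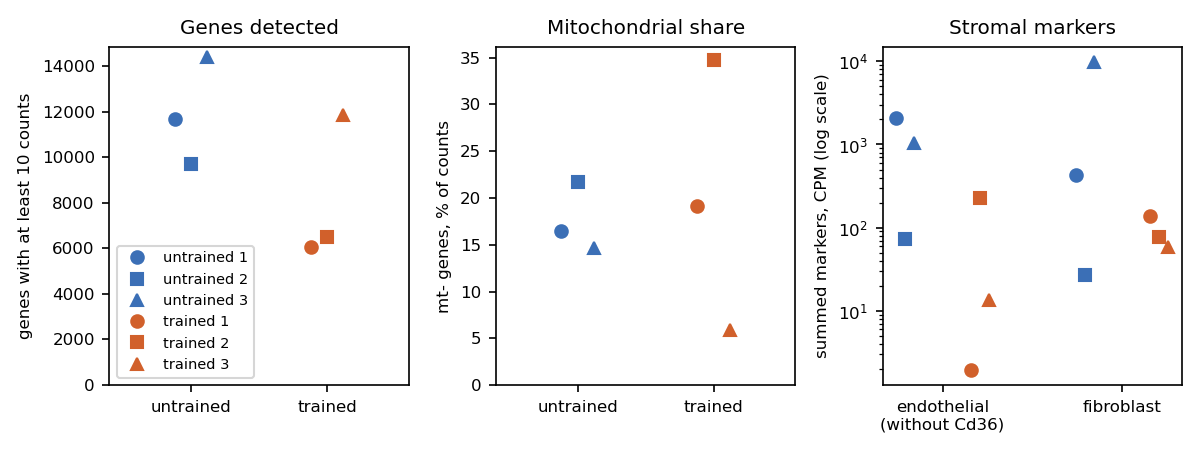
Genes with at least 10 counts, percent of counts from mt- genes, and summed marker levels (CPM of library totals, log axis) in each of the 6 type I libraries, one symbol per replicate number. Untrained library 3 has the highest fibroblast sum (9713 CPM), untrained library 1 the highest endothelial sum (2092 CPM), and trained libraries 1 and 2 have the fewest genes (6082 and 6517).

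No gene passed the test of training in type I fibres. Of 11747 genes tested, edgeR's quasi-likelihood test called 0 higher and 0 lower (0.0% called), taking a call as an adjusted p (Benjamini-Hochberg) below 0.05. The adjusted p was 1 for every gene named here that was tested except Mgp (0.99), so directions below are those of the measured levels and none is a called change. An unadjusted p under 0.05 was reached by 48 genes with higher levels in trained libraries (0.409% of those tested) and 297 with lower levels (2.53%), together 2.94%. Libraries of the groups did not overlap for 327 higher (2.78%) and 1049 lower genes (8.93%). The median log2 difference, trained minus untrained, was -0.28 over all genes, -0.57 with RLE size factors and -0.46 with library totals (0.23 without untrained libraries 1 and 3, -0.18 without trained libraries 1 and 2). Medians of lists are therefore given relative to it as well where their sign turned with the scaling. DESeq2 called 1 gene higher and 58 lower, and limma-voom called 1 higher (Cryab, a small chaperone that protects sarcomeres) and 3 lower (Acta1, skeletal actin, Mmrn2, an endothelial matrix protein, and mt-Nd1, a subunit of complex I). Of the 58 that DESeq2 called lower, 49 had no more than 3 counts over the trained libraries.

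The lower genes were mostly genes with hardly a read in the trained libraries. Of the 297, 174 had no count in any trained library and 247 no more than 3 counts over all of them. Their highest level was in untrained library 1 for 107, library 2 for 45 and library 3 for 145 genes. The 48 higher genes peaked in trained library 1 (22), 2 (19) or 3 (7). In these libraries fewer cells of a type and less RNA per cell cannot be told apart. Levels of single genes below are CPM with TMM-scaled library sizes. A fold compares the summed counts of each group after division by the group's summed scaled library sizes, and a log2 difference is the fitted value of edgeR with its standard error. A fold given as at least a value sets a group with no count to 3 counts. Such a bound covers counting error only, not the spread between libraries. Libraries are listed in the order 1, 2, 3.

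**Figure D2:**
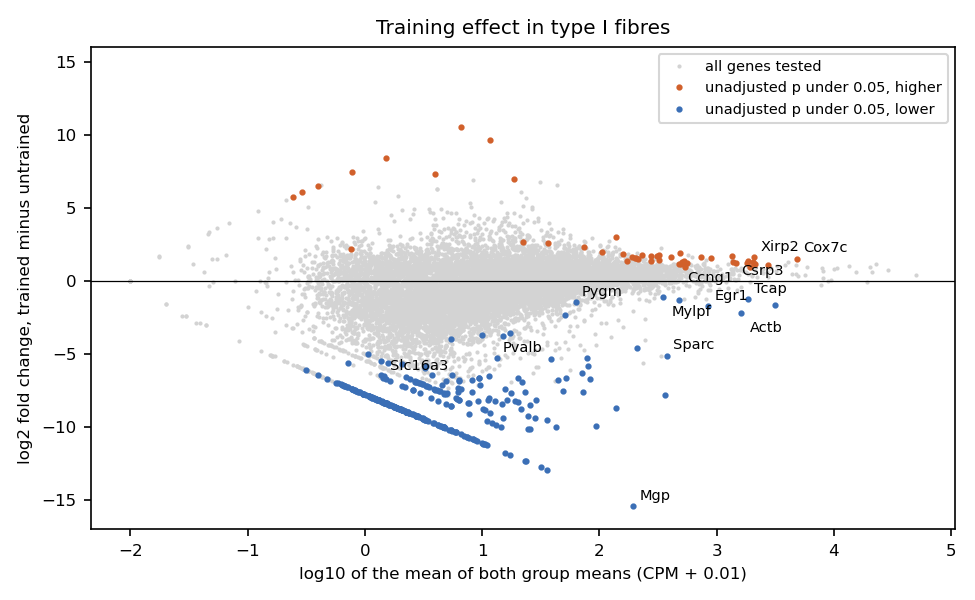
Log2 fold change (trained minus untrained, edgeR) against log10 of the mean level (CPM + 0.01) for the 11747 genes tested, with the 48 higher and 297 lower genes of unadjusted p under 0.05 in colour. Most lower genes lie on the steep edge formed by genes with no count in trained libraries, and Mgp is lowest at -15.41.

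The myosin heavy chains showed slow fibres in both groups, with reads of faster isoforms mainly in untrained library 1 and trained library 2. Myh7 (ENSMUSG00000053093, chromosome 14, 54970684 to 54994626 on mm10) had 369, 542 and 251 CPM in the untrained and 1319, 165 and 598 CPM in the trained libraries, a log2 difference of 0.84 ± 0.74 (unadjusted p = 0.272). Trained library 1 was highest and trained library 2 lowest, so the groups overlapped. Myh7 made up, of all reads on the 4 adult heavy chains (Myh7, Myh2, Myh1, Myh4), 80.5, 98.7 and 97.1% untrained and 99.8, 91.5 and 99.7% trained. Per gene length Myh7 lay far below Myl2, the slow regulatory light chain. Myh7 had 229.8, 252 and 165 FPKM untrained and 479, 60.5 and 423 FPKM trained. Myl2 had 15789, 24984 and 16177 FPKM untrained and 20739, 42672 and 11841 FPKM trained.

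Myh2, which type IIa fibres carry, had 48.3, 4.74 and 6.05 CPM in the untrained and 0, 0 and 0.757 CPM in the trained libraries (1100 against 17 counts, unadjusted p = 0.0514). All untrained libraries lay above all trained ones, and untrained library 1 held most of the counts. Without untrained libraries 1 and 3 its log2 difference was -4.05 in place of -6.18. Its share of the myosin counts was 10.5, 0.863 and 2.34% untrained and 0, 0 and 0.126% trained (exact permutation test, p = 0.1, adjusted p = 0.4 over 12 isoform shares). Myh1, of type IIx fibres, had 40.9, 2.66 and 0.982 CPM in the untrained and 0.373, 14.5 and 0 CPM in the trained libraries, which overlapped, and was high in 1 library of each group. Without untrained library 1 its log2 difference turned from -1.58 to 1.45. Myh4, of type IIb fibres, had at most 1.62 CPM in any of the 6 libraries, with 0.240, 0 and 0.504 untrained and 1.62, 0.825 and 1.34 trained (log2 difference 2.20 ± 0.81, unadjusted p = 0.0209). It was 6.78 without untrained libraries 1 and 3. These were 23 and 50 counts in all, so the 6 libraries held hardly any transcript of the type IIb heavy chain.

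Fast partners of 2 further slow proteins were lower in every trained library. Mylpf, the fast regulatory light chain (ENSMUSG00000030672, chromosome 7, 127208890 to 127214298), had 681, 435 and 329.9 CPM in the untrained and 243, 308 and 113 CPM in the trained libraries, 2.4-fold lower (log2 difference -1.12 ± 0.37, unadjusted p = 0.00718). The difference was -0.97 without untrained libraries 1 and 3 and -2.09 without trained libraries 1 and 2. As a share of the summed FPKM of Mylpf and Myl2 it was 12.4, 4.08 and 6.61% untrained and 2.19, 1.38 and 3.42% trained (exact permutation test, p = 0.1, adjusted p = 0.4). Atp2a1, the fast calcium pump, had 138, 82.9 and 74.6 CPM in the untrained and 59.5, 70.2 and 18.6 CPM in the trained libraries (unadjusted p = 0.109). Its share of the summed FPKM of Atp2a1 and Atp2a2 was 3.20, 1.93 and 2.54% untrained and 0.558, 1.68 and 0.325% trained, again without overlap (exact p = 0.1, adjusted p = 0.4). Pvalb, the calcium buffer of fast fibres (ENSMUSG00000005716, chromosome 15, 78191114 to 78206400), had 73.6, 2.80 and 1.43 CPM in the untrained and 0.373, 0.942 and 0.623 CPM in the trained libraries, 30.2-fold lower (log2 difference -5.31, unadjusted p = 0.00655). Its log2 difference was -1.70 without untrained library 1, and -2.06 without untrained libraries 1 and 3. Untrained library 1 was far above the others. It also had the largest share of fast Tnni2 in the summed FPKM of fast and slow troponin I (Tnni2 and Tnni1). This share was 49.3% against 4.44% and 0.370% in untrained libraries 2 and 3. The shares of fast Myl1, Tnni2, Tnnt3, Tpm1, Casq1 and Myoz1 overlapped between the groups, with exact p of 0.5 or more.

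**Figure D3:**
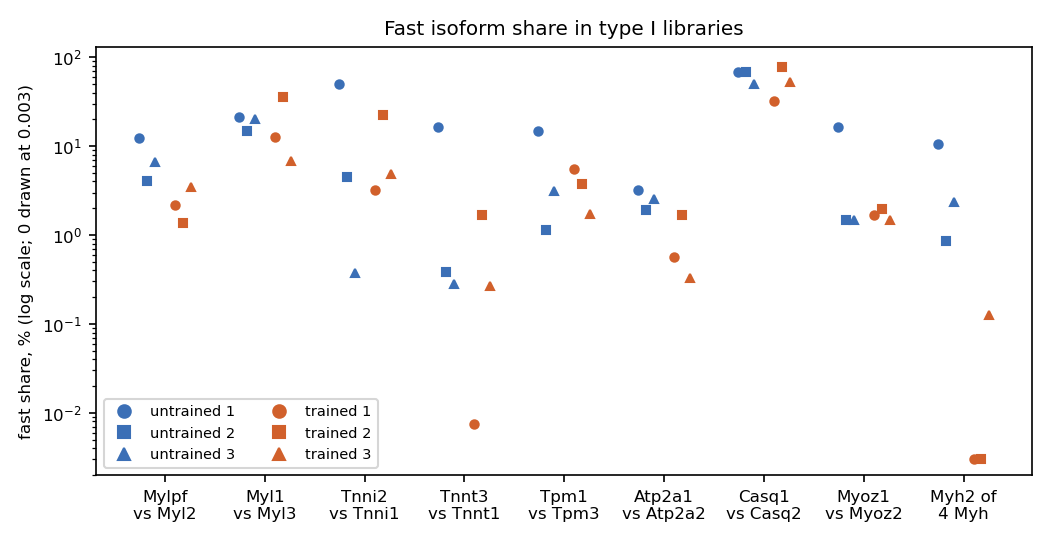
Share of the fast isoform in the summed FPKM of a fast and slow pair, in each type I library. Myh2 is shown as a share of reads on the 4 adult heavy chains. Shares are in percent on a log axis, with 0 drawn at 0.003. Trained libraries lie below all untrained ones for Mylpf, Atp2a1 and Myh2, and untrained library 1 is the highest for Tnni2 (49.3%), Tnnt3 (16.4%) and Myh2 (10.5%).

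As a list, fast contractile genes had lower levels in trained libraries for 11 of 14 tested members (15 listed), with a median log2 difference of -1.06 (-0.78 relative to all genes). Of these 14, 4 were lower and 1 higher without overlap (Myh2, Mylpf, Atp2a1 and Pvalb lower, Myh4 higher), beside 8.93% and 2.78% of all genes. Lower medians held with RLE size factors (-1.48) and library totals (-1.56), but the median was 0.09 (-0.14 relative to all genes) without untrained libraries 1 and 3. Those libraries are also the ones with the most endothelial and fibroblast markers, and the part of other fibres or cells in this difference was not tested. Slow contractile genes did not separate. Their median was 0.08 over 16 tested members, 11 of them higher. Relative to all genes it was 0.36, 0.34 under RLE and 0.20 with library totals, but -0.46 without untrained libraries 1 and 3 and -0.23 without trained libraries 1 and 2. Myl2 had 5541, 11754 and 5356 CPM in the untrained and 12477, 25396 and 3662 CPM in the trained libraries. Myl3, the slow essential light chain, had 8977, 14758 and 4274 CPM in the untrained and 11706, 10544 and 6741 CPM in the trained libraries. Tpm3, slow tropomyosin, had 5519, 15076 and 5994 CPM in the untrained and 8125, 11999 and 6699 CPM in the trained libraries. All 3 overlapped, with trained library 2 the highest for Myl2 and untrained library 2 for the other two.

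Among Z-disc genes, Csrp3 and Xirp2 were higher in 1 or 2 trained libraries, while Tcap and Pdlim7 were lower in all 3. Tcap, the titin cap protein (ENSMUSG00000007877, chromosome 11, 98383811 to 98384953), had 2145, 3713 and 2008 CPM in the untrained and 1055, 1116 and 1104 CPM in the trained libraries, 2.18-fold lower (log2 difference -1.26 ± 0.54, unadjusted p = 0.0294). The trained values lay close together and below every untrained one. Pdlim7, a Z-disc adaptor (ENSMUSG00000021493, chromosome 13, 55495795 to 55513676), had 88.7, 78.6 and 89.3 CPM in the untrained and 0.124, 27.8 and 23.0 CPM in the trained libraries (4.50-fold lower, unadjusted p = 0.0456). The 3 untrained values were alike, and trained library 1 held 1 count.

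Csrp3, the muscle LIM protein, listed with slow contractile genes (ENSMUSG00000030470, chromosome 7, 48830398 to 48848033), had 397, 432 and 1093 CPM in the untrained and 506, 896 and 4859 CPM in the trained libraries, 3.93-fold higher (log2 difference 1.70 ± 0.81, unadjusted p = 0.0487). Trained library 3 alone lay above all others, and without it the log2 difference was 0.06. Xirp2, an actin-binding repeat protein of damaged and remodelling sarcomeres (ENSMUSG00000027022, chromosome 2, 67173834 to 67526615), had 1165, 1038 and 885 CPM in the untrained and 3567, 225 and 5688 CPM in the trained libraries (4.13-fold higher, unadjusted p = 0.0294). Trained libraries 1 and 3 were highest of all and library 2 lowest of all. Its log2 difference was 1.62, and 0.81 without trained library 3. Of the 19 tested sarcomere genes shared by fibre types (20 listed), 0 were higher and 3 lower without overlap, beside 2.78% and 8.93% of all genes, the third being Actn2, named after its values were seen. Their median was 0.11, or 0.39 relative to all genes (0.43 under RLE, -0.26 without untrained libraries 1 and 3). Acta1, skeletal actin, had 13797, 28433 and 16183 CPM in the untrained and 20515, 24348 and 10589.5 CPM in the trained libraries, and Ttn, titin, had 9605, 6467 and 6003 CPM in the untrained and 23631, 1384 and 12811 CPM in the trained libraries. Both overlapped, and the highest and the lowest value of Ttn were both in trained libraries.

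Actb, the cytoplasmic actin of most non-muscle cells (ENSMUSG00000029580, chromosome 5, 142903115 to 142906754), was lower in every trained library. It had 1972, 979 and 5051 CPM in the untrained and 536, 682 and 479.9 CPM in the trained libraries, 6.48-fold lower (log2 difference -2.24 ± 0.54, unadjusted p = 0.000561). Untrained library 3, with the highest fibroblast sum, was also highest for Actb, and untrained library 2, with the lowest (27.0 CPM), was the lowest of the untrained. The Actb level of untrained library 2 was still above those of all trained libraries, whose fibroblast sums were 138, 77.6 and 59.2 CPM. Without untrained libraries 1 and 3 the log2 difference was -0.77 (unadjusted p = 0.279). The part of other cells in this difference was not tested.

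Immediate early genes, the transcription factors and feedback regulators that cells switch on first after a stimulus, had lower levels in trained fibres for 20 of 22 tested members (24 listed). The median log2 difference was -1.60, or -1.32 relative to all genes. It was -1.88 with RLE size factors (20 of 22 lower), -1.69 with library totals (21), -1.15 without untrained libraries 1 and 3 (18) and -1.74 without trained libraries 1 and 2 (22). The groups did not overlap for 11 members, all of them lower, where 8.93% of all genes tested were lower without overlap. None passed over all genes, and Fosb and Egr1 had an unadjusted p under 0.05.

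Fosb, an AP-1 subunit (ENSMUSG00000003545, chromosome 7, 19302696 to 19310051), had 32.7, 30.8 and 397 CPM in the untrained and 0.124, 9.54 and 2.36 CPM in the trained libraries, 67.4-fold lower (log2 difference -5.26 ± 1.76, unadjusted p = 0.00755). Untrained library 3 was far above the other untrained libraries, and trained library 1 had 1 count. The log2 difference was -2.99 (unadjusted p = 0.18) without untrained library 3 and -2.88 without untrained libraries 1 and 3. Egr1, a zinc finger factor, had 966, 1983 and 966 CPM in the untrained and 699, 150.4 and 337 CPM in the trained libraries, 3.17-fold lower (log2 difference -1.72 ± 0.71, unadjusted p = 0.0258). Trained library 1 was the nearest to the untrained libraries, and the groups did not overlap. Fos, an AP-1 subunit with the highest CPM of the list, had 926, 1598 and 1931 CPM in the untrained and 2165, 643 and 303 CPM in the trained libraries and overlapped, since trained library 1 was the highest of all 6. Atf3, a stress-induced factor, had 719, 978 and 452 CPM in the untrained and 1599, 52.5 and 348 CPM in the trained libraries, with the same library highest.

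The other members without overlap were named after their values were seen. Junb, an AP-1 subunit, had 51.7, 24.8 and 32.5 CPM in the untrained and 1.24, 2.12 and 17.0 CPM in the trained libraries. Ier2 had 111, 117 and 84.4 CPM in the untrained and 0.995, 18.3 and 36.6 CPM in the trained libraries, and Ier5 had 192, 147 and 84.4 CPM in the untrained and 55.5, 3.30 and 22.9 CPM in the trained libraries. Junb and Ier2 were lowest in trained libraries 1 and 2, the ones with few genes, and Ier5 in trained library 2. Nr4a1, a nuclear receptor induced by exercise, had 116, 169.7 and 111 CPM in the untrained and 37.6, 60.8 and 43.5 CPM in the trained libraries. Zfp36, which destabilises cytokine mRNAs, had 205, 137 and 406 CPM in the untrained and 36.9, 27.4 and 53.4 CPM in the trained libraries. For both genes the 3 trained values lay close together and below every untrained one.

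The Krüppel-like factors Klf2, Klf4 and Klf6 and the growth regulator Myc completed this group. Klf2 had 74.0, 52.1 and 81.3 CPM in the untrained and 9.08, 10.5 and 30.0 CPM in the trained libraries, and Klf4 had 63.0, 39.3 and 88.7 CPM untrained and 0.249, 31.7 and 14.96 CPM trained. Klf6 had 80.7, 46.4 and 123 CPM in the untrained and 0.995, 7.66 and 40.7 CPM in the trained libraries, and Myc had 25.5, 27.6 and 22.6 CPM in the untrained and 0.124, 0 and 20.1 CPM in the trained libraries. Trained library 3 came close to the untrained range for Myc. Klf2 and Klf4 are also abundant in endothelial cells, whose markers were highest in untrained libraries 1 and 3. Their part in these levels was not tested.

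The bases before the start of some of these genes are shown because members of the list were lower together. RefSeq windows on GRCm38.p6 of 250 bases before the start were found for 20 of the 24 immediate early genes. The core TGACG of the cAMP response element, on either strand, was in 13 of these 20 (65%) and in 19.8% of all 27025 genes with a window. Of the members lower without overlap, Fosb, Junb, Klf2, Klf4 and Nr4a1 held it. Egr1, Ier2, Ier5, Zfp36, Klf6 and Myc did not or had no window. Atf3, Btg2, Dusp1, Egr2, Fos, Maff, Nr4a2 and Nr4a3 held it but were not lower without overlap. The windows printed were picked from lower members that held it. The E-box CACGTG, which can overlap TGACG by 2 bases, was in 5 of the 20 (25%) against 6.86% of all. A match describes the letters and is not a site. Capitals mark TGACG or its reverse complement in Fosb (chr7:19310046-19310295, minus strand), Junb (chr8:84978749-84978998, minus strand) and Nr4a1 (chr15:101266596-101266845, plus strand).
Fosb: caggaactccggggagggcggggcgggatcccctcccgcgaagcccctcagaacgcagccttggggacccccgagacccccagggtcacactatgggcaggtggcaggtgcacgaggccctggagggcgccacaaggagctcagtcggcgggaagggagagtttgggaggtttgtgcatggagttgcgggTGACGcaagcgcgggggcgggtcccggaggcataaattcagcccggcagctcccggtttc
Junb: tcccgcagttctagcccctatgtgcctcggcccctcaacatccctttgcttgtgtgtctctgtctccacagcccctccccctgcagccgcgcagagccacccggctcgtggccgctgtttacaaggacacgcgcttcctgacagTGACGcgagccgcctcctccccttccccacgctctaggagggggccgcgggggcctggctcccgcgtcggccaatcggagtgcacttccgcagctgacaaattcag
Nr4a1: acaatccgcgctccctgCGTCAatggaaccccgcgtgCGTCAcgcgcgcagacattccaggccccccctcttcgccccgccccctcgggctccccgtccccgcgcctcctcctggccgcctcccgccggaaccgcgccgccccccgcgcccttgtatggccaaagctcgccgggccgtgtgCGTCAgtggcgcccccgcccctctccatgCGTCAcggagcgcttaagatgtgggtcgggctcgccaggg
Fosb and Junb held 1 copy each and Nr4a1 held 4.

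Several genes of the circadian clock had lower levels in every trained library. Of 18 members, all tested, 5 were lower without overlap (8.93% of all genes tested) and 0 were higher. These were the period genes Per1, Per2 and Per3, the output factor Dbp and the repressor Bhlhe41. The list as a whole had a median of -0.48, -0.20 relative to all genes, with 12 of 18 lower. It was -0.79 under RLE, -0.82 with library totals, -0.21 without untrained libraries 1 and 3 and -0.04 without trained libraries 1 and 2. Relative to all genes these medians were -0.22, -0.36, -0.44 and 0.13 in the same order, so the relative sign turned without trained libraries 1 and 2.

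Dbp (ENSMUSG00000059824, chromosome 7, 45705088 to 45710203) had 4.98, 3.88 and 7.64 CPM untrained and no count in any trained library, at least 80.9-fold lower with a floor of 3 counts over the group (unadjusted p = 0.0180). These were 425 counts against 0, and 18% of its exon bases lie over another gene, whose reads cannot be told apart without strand. Per3 had 156, 47.0 and 96.8 CPM in the untrained and 5.35, 3.65 and 18.7 CPM in the trained libraries (7.98-fold lower). Per1 had 8.76, 7.97 and 20.2 CPM in the untrained and 1.49, 0.825 and 5.08 CPM in the trained libraries, and Per2 had 25.2, 3.02 and 5.84 CPM in the untrained and 0, 0 and 2.09 CPM in the trained libraries. Each period gene was lower in every trained library, and Per2 had no count in trained libraries 1 and 2.

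Bhlhe41 had 192, 111 and 170.0 CPM in the untrained and 15.3, 68.9 and 98.5 CPM in the trained libraries, 2.18-fold lower, and 19.0% of its exon bases lie over another gene. Of these 5 genes only Dbp had an unadjusted p under 0.05, and the other 4 were named after their values were seen, like Arntl, Tef and Nr1d1 below. The activator Arntl had 8.34, 0.144 and 19.3 CPM in the untrained and 2.49, 0 and 27.0 CPM in the trained libraries and overlapped. Other clock-controlled genes overlapped too, among them Tef with 60.9, 54.3 and 45.4 untrained and 266, 45.1 and 62.0 trained and Nr1d1 with 6.06, 17.8 and 16.2 untrained and 8.21, 12.7 and 5.70 trained CPM. Bhlhe40 and Nr1d2, the members with the highest mean levels, had 308, 292 and 342 untrained and 209.8, 357 and 207 trained and 201, 223 and 129.8 untrained and 109, 130.2 and 188 trained CPM. The time of day at which muscles were taken is not given in the sources used here, and it cannot be told apart from training. CACGTG, the E-box bound by the clock activators, was in 5 of 15 clock genes with a window (33.3%) and in 6.86% of all genes. These were Per1 and Bhlhe41, and Tef, Ciart and Cry1, which were not lower without overlap. Per2, Per3 and Dbp, lower without overlap, did not hold it or had no window. The genes printed were picked as lower ones that held it. One window is shown each for Per1 (chr11:69098699-69098948, plus strand) and Bhlhe41 (chr6:145865421-145865670, minus strand), with the E-box in capitals.
Per1: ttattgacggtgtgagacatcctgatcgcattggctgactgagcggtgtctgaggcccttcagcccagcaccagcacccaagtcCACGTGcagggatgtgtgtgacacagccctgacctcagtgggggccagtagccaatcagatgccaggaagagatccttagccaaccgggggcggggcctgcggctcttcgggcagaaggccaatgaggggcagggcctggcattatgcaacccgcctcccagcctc
Bhlhe41: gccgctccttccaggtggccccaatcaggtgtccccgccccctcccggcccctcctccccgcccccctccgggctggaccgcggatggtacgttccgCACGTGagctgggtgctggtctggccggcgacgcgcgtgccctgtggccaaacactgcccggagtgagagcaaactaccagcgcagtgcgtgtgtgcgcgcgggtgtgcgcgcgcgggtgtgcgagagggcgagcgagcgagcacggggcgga
Each of these windows held 1 copy. A further RefSeq window of Per1 (chr11:69099902-69100151) held 0 copies, and a gene was counted as holding a motif where any of its windows did.

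**Figure D4:**
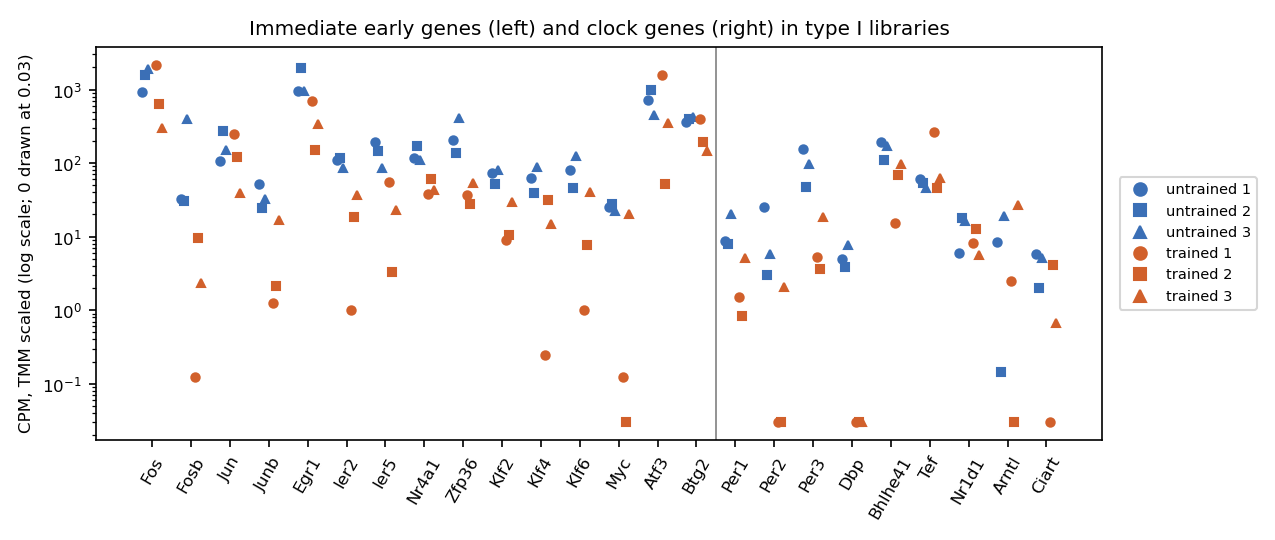
Levels (CPM with TMM scaling, log axis, 0 drawn at 0.03) of 15 immediate early genes and 9 clock genes in each type I library. Trained libraries lie below all untrained ones for Fosb, Junb, Egr1, Ier2, Ier5, Nr4a1, Zfp36, Klf2, Klf4, Klf6, Myc, Per1, Per2, Per3, Dbp and Bhlhe41, and overlap them for the other genes.

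Transcripts of the mitochondrial genome had higher fitted levels in trained fibres for 13 of 13 genes, with a median of 1.13 (1.41 relative to all genes). This rested on trained libraries 1 and 2. The median was 0.76 under RLE and 0.58 with library totals (12 of 13 higher), and -1.56 (1 of 13 higher) without those 2 libraries. mt-Co3, a subunit of cytochrome oxidase (ENSMUSG00000064358, chromosome MT, 8607 to 9390), had 401, 494 and 177 CPM in the untrained and 886, 2269.9 and 187 CPM in the trained libraries (2.65-fold higher, log2 difference 1.64 ± 0.66, unadjusted p = 0.0218). mt-Atp6, of ATP synthase (ENSMUSG00000064357, chromosome MT, 7927 to 8607), had 237, 238 and 132 CPM in the untrained and 439, 1201 and 215 CPM in the trained libraries (2.66-fold higher, unadjusted p = 0.0122). Trained library 3 lay within the untrained range for both genes, and library 2 was far above. Without trained libraries 1 and 2 the log2 difference was -0.93 for mt-Co3, and 0.09 in place of 1.61 for mt-Atp6. mt-Cytb, which had the highest CPM of the list, had 18259, 18976 and 28346 CPM in the untrained and 23279.7, 79557 and 5134 CPM in the trained libraries. Its lowest and its highest value were both in trained libraries, and no gene of the list separated the groups.

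Nuclear genes of the respiratory chain followed the same libraries. Small subunits of cytochrome oxidase were among the 48 higher genes. Cox7c (ENSMUSG00000017778, chromosome 13, 86044816 to 86046904) had 2384, 3930.4 and 1245 CPM in the untrained and 8951, 10103 and 2650.2 CPM in the trained libraries, 2.69-fold higher (log2 difference 1.52 ± 0.54, unadjusted p = 0.0117). Cox6c had 1687, 2702 and 933 CPM in the untrained and 3918, 5194 and 2079.6 CPM in the trained libraries (unadjusted p = 0.0246), and Uqcrb, of complex III, had 1073, 1886 and 615 CPM in the untrained and 3476, 3981 and 1260.3 CPM in the trained libraries (unadjusted p = 0.0379). In each of the 3 genes trained libraries 1 and 2 were above all untrained ones, and trained library 3 was within the untrained range. Without trained libraries 1 and 2 the log2 differences were 0.07 for Cox7c, 0.23 for Cox6c and 0.08 for Uqcrb.

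Cox7a2 had 911, 1715 and 686 CPM in the untrained and 2748, 4021 and 835 CPM in the trained libraries, and Cox8b, the muscle form of subunit 8, had 1237, 1810.4 and 941 CPM in the untrained and 2449.8, 5218 and 1147 CPM in the trained libraries (unadjusted p = 0.0359 and 0.0382). Without trained libraries 1 and 2 their log2 differences turned to -0.40 and -0.21. Of 42 nuclear genes of complexes II to V, 31 were higher, 2 were higher and 1 lower without overlap (2.78% and 8.93% of all genes), and the median was 0.47 (0.75 relative to all genes). Of 36 complex I genes 26 were higher, with a median of 0.36 (0.64 relative to all genes). Of the complex I genes 1 was higher (Ndufb6) and 2 were lower (Ndufa13 and Ndufs8) without overlap, beside 2.78% and 8.93% of all genes, and these 3 were named after their values were seen. Both medians stayed above that of all genes under RLE (0.18 and 0.03) and library totals (0.10 and -0.01), but both were -0.31 without trained libraries 1 and 2, and -0.02 and 0.00 without untrained libraries 1 and 3. Mitochondrial transcripts took 19.2% and 34.7% of the counts of trained libraries 1 and 2, against 5.86% in trained library 3, and its part in these values was not tested.

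In the tricarboxylic acid cycle, a few enzymes were higher in every trained library. Of 19 enzymes, 4 were higher without overlap and 0 lower, where 2.78% and 8.93% of all genes were. Dld, the shared dehydrogenase subunit of pyruvate and oxoglutarate dehydrogenase (ENSMUSG00000020664, chromosome 12, 31331277 to 31351453), had 160.3, 206 and 158 CPM in the untrained and 894, 296 and 224 CPM in the trained libraries, 2.25-fold higher (log2 difference 1.43 ± 0.63, unadjusted p = 0.0341). Trained library 1 was far above the others, and the other trained libraries lay just over the untrained range. Without trained libraries 1 and 2 the log2 difference was 0.37. Sdha (succinate dehydrogenase), Fh1 (fumarase) and Sucla2 (succinyl-CoA ligase) were named after their values were seen. Sdha had 488, 449 and 345 CPM in the untrained and 1573, 526 and 537 CPM in the trained libraries (unadjusted p = 0.0795). Fh1 had 136, 205 and 179 CPM in the untrained and 573, 345 and 222 CPM in the trained libraries (unadjusted p = 0.0765). Sucla2 had 348, 324 and 273 CPM in the untrained and 529.6, 455 and 600.4 CPM in the trained libraries (unadjusted p = 0.138). The list's median was 0.23. Relative to all genes it was 0.51, 0.45 under RLE and 0.34 with library totals, but -0.39 without untrained libraries 1 and 3 and -0.09 without trained libraries 1 and 2. Cs, citrate synthase and a common index of mitochondrial content, had 307, 326 and 278 CPM in the untrained and 524, 325 and 174 CPM in the trained libraries. Cs overlapped, and its log2 difference of 0.17 ± 0.96 changed sign with the scaling.

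Fatty acid genes had a median of 0.57 over 29 tested members (30 listed), 22 of them higher, or 0.85 relative to all genes. Without trained libraries 1 and 2 it was -0.49 (-0.31 relative to all genes), with 5 of 29 higher. Lpl, lipoprotein lipase, had 2625, 2762 and 1587 CPM in the untrained and 10842, 2429.7 and 4017 CPM in the trained libraries. Fabp3, the fatty acid carrier of muscle, had 716, 1200.1 and 1414 CPM in the untrained and 1703, 2342 and 553 CPM in the trained libraries, and Cd36, a fatty acid transporter, had 631, 554 and 619.8 CPM in the untrained and 2255, 555 and 423 CPM in the trained libraries. In all 3 genes 1 or 2 trained libraries were highest and the groups overlapped. Pdk4, which turns carbon use from glucose to fat, had 362, 245 and 281 CPM in the untrained and 1000.3, 73.0 and 974 CPM in the trained libraries (log2 difference 1.21 ± 1.38, unadjusted p = 0.398). Trained libraries 1 and 3 were far above every untrained one, while trained library 2 was the lowest of all. Acadvl, an acyl-CoA dehydrogenase, had 0, 8.90 and 2.23 CPM untrained and no count trained (208 counts against 0, at least 39.6-fold lower, unadjusted p = 0.0292). Of its exon bases 42.9% lie over another gene, and untrained library 1 also had none.

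Single genes of glycogen breakdown, lactate export and glucose handling were lower in all trained libraries. Pygm, muscle glycogen phosphorylase (ENSMUSG00000032648, chromosome 19, 6384399 to 6398459), had 88.8, 81.9 and 107 CPM in the untrained and 26.7, 36.6 and 35.6 CPM in the trained libraries, 2.87-fold lower (log2 difference -1.49 ± 0.70, unadjusted p = 0.0460). The values within each group were close, and none overlapped. Slc16a3, the lactate exporter of glycolytic fibres (ENSMUSG00000025161, chromosome 11, 120948480 to 120960868), had 4.74, 2.87 and 0.929 CPM untrained and 1 count in the 3 trained libraries (154 counts against 1, ratio of untrained to trained levels 87.9 with an exact 95% interval of 15.5 to 3495 that covers counting error only, unadjusted p = 0.000591). Txnip, which restrains glucose uptake, had 281, 321 and 316 CPM in the untrained and 128, 141 and 117 CPM in the trained libraries, 2.48-fold lower (unadjusted p = 0.122). Its untrained values lay within a narrow range, as did its trained values, and 19.4% of its exon bases lie over another gene.

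Other glycogen genes did not share one direction. Stbd1 (a glycogen-binding protein) was higher and Pgm2 lower without overlap, and both were named after their values were seen. Stbd1 had 0.540, 10.8 and 10.4 CPM in the untrained and 140.1, 20.7 and 14.7 CPM in the trained libraries. Pgm2 had 25.1, 21.8 and 18.2 CPM in the untrained and 0, 0.118 and 5.57 CPM in the trained libraries. The 16 glycogen genes had a median of 0.14, or 0.42 relative to all genes (0.37 under RLE, 0.26 with library totals). Gyg, glycogenin, had 602, 914 and 500.1 CPM in the untrained and 2306, 1147 and 523 CPM in the trained libraries and overlapped. Of 16 glycolytic genes 11 were lower, with a median of -0.21, close to that of all genes (0.07 relative to it), and Gpi1 was the 1 gene without overlap, with 198, 230.2 and 184 untrained and 117, 172 and 83.1 trained CPM. Aldoa had 2016, 2393 and 1018 untrained and 1029.8, 1809 and 669 trained CPM, Gapdh 1008, 927 and 779 untrained and 874, 1248 and 347 trained CPM and Ldhb, the heart-type lactate dehydrogenase, 1444, 2419 and 1594 untrained and 4924, 2961 and 1363 trained CPM. Slc2a4, the insulin-responsive glucose transporter, had 279, 476 and 64.2 CPM in the untrained and 234, 116 and 156 CPM in the trained libraries and overlapped.

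The regulators most studied in endurance training showed no separation. Ppargc1a (ENSMUSG00000029167, chromosome 5, 51454250 to 51567726) had 64.8, 76.5 and 36.3 CPM in the untrained and 37.2, 62.8 and 78.9 CPM in the trained libraries, a log2 difference of 0.01 ± 1.59 (unadjusted p = 0.994). The groups overlapped. Vegfa, the main angiogenic growth factor (ENSMUSG00000023951, chromosome 17, 46016993 to 46032369), had 354, 176 and 163 CPM in the untrained and 229, 67.4 and 189.7 CPM in the trained libraries (log2 difference -0.51 ± 0.68, unadjusted p = 0.462), with trained library 2 lowest. Of 22 tested regulators of mitochondrial biogenesis and dynamics (23 listed), 1 was higher and 1 lower without overlap, beside 2.78% and 8.93% of all genes. Dnm1l, the mitochondrial fission GTPase, had 78.3, 66.0 and 65.1 CPM in the untrained and 102, 151 and 100.1 CPM in the trained libraries, and Gabpb1, a subunit of a nuclear respiratory factor, had 16.0, 21.7 and 8.57 CPM in the untrained and 0.498, 0.118 and 8.51 CPM in the trained libraries. Mfn1 and Mfn2, the fusion GTPases, had 176, 189 and 110.1 untrained and 723, 171 and 156 trained and 268, 352 and 104 untrained and 643, 185 and 288 trained CPM. The list's median was 0.31, or 0.59 relative to all genes (0.49 under RLE, 0.52 with library totals, -0.10 without untrained libraries 1 and 3).

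Genes of protein making and folding overlapped between the groups for the most part. All 52 ribosomal protein genes had higher fitted levels in trained fibres, with a median of 0.71 (0.99 relative to all genes). With RLE size factors 46 of 52 were higher, with library totals 42, without untrained libraries 1 and 3 28, and without trained libraries 1 and 2 23. None separated the groups. Rpl30 had 112, 259 and 70.3 CPM in the untrained and 548, 663 and 199 CPM in the trained libraries (log2 difference 1.68, unadjusted p = 0.0338, and 0.44 without trained libraries 1 and 2), and 24.8% of its exon bases lie over another gene. Rplp0 and Rpl4 had 458, 1100.3 and 754 untrained and 883, 1978 and 358 trained and 239, 732 and 458 untrained and 1613, 1174 and 394 trained CPM, with trained library 3 lowest or near the lowest.

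Of 20 chaperones, 3 were higher and 2 lower without overlap, beside 2.78% and 8.93% of all genes. The median was 0.48, or 0.76 relative to all genes (-0.02 without untrained libraries 1 and 3). The members without overlap were named after their values were seen. Hsph1, an exchange factor of Hsp70, had 89.4, 57.5 and 116 CPM in the untrained and 517, 147 and 318 CPM in the trained libraries. Hspa4, its relative, had 104, 172 and 99.4 CPM in the untrained and 437, 204 and 256 CPM in the trained libraries, and Dnaja1, a co-chaperone, had 95.4, 47.2 and 101 CPM in the untrained and 180.1, 118 and 153 CPM in the trained libraries. The heat shock factor Hsf1 was lower, with 12.7, 13.1 and 25.3 CPM in the untrained and 6.10, 8.60 and 11.6 CPM in the trained libraries, as was Hspb7, a small heat shock protein of muscle, with 107, 83.1 and 95.8 CPM in the untrained and 21.3, 13.7 and 82.6 CPM in the trained libraries. Cryab had 4314, 6624 and 3914 CPM in the untrained and 6805, 5270.2 and 7327 CPM in the trained libraries and overlapped. Of 29 proteasome genes 5 were higher (Psma1, Psma2, Psmc4, Psmd1 and Psmd14) and 1 lower (Psmb2) without overlap, again beside 2.78% and 8.93% of all genes. Their median was 0.06, or 0.35 relative to all genes and -0.16 without untrained libraries 1 and 3. Psmd14, the deubiquitinase of the regulatory particle, had 83.5, 138 and 156 CPM in the untrained and 351, 337 and 216 CPM in the trained libraries.

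Matrix genes and markers of other cells were lower in trained libraries, and these levels were highest in untrained libraries 1 and 3. Those libraries are left out below because they held the most of these very markers, so a smaller or reversed difference without them follows in part from that choice. Extracellular matrix genes were lower for 24 of 25 tested members (27 listed), with a median of -4.99. Without untrained libraries 1 and 3 the median was 2.04, with 20 of 25 higher. Endothelial genes had a median of -4.67 over 15 tested (1.13 without those libraries) and fibroblast genes one of -4.72 over 11 (1.57). RLE size factors and library totals left these 3 medians between -5.40 and -4.94. In each of these 3 lists 1 tested member had no trained count, and setting it to its bound left the median as it was. A median hardly moves with 1 member, so this does not test how far low counts set it. Of the endothelial list 8 of 16 markers were under 1 CPM in all trained libraries and 0 in all untrained ones. For fibroblasts these were 4 and 0 of 12, and for pericytes 6 and 0 of 12.

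Mgp, a matrix protein that blocks calcification (ENSMUSG00000030218, chromosome 6, 136872435 to 136875823), had the smallest p of all genes. It had 17.5, 1.65 and 1152 CPM untrained and no count trained (43721 counts against 0, at least 8322-fold lower, log2 difference -15.41 ± 2.87, unadjusted p = 8.43e-05). Nearly all its counts came from untrained library 3, without which the log2 difference was -9.86. Rgs5, a pericyte gene, had 285, 17.6 and 259 CPM in the untrained and 0, 0.589 and 0 CPM in the trained libraries (5 trained counts, unadjusted p = 0.00497). Sparc, a collagen-binding matrix protein, had 140.0, 20.6 and 2032 CPM in the untrained and 21.8, 15.8 and 25.1 CPM in the trained libraries (51.8-fold lower, unadjusted p = 0.00190). For Sparc untrained library 2 lay within the trained range, and the log2 difference without libraries 1 and 3 was 0.04.

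The collagen gene Col1a2 had 18.9, 0.718 and 2126 CPM in the untrained and 7.09, 0.236 and 2.00 CPM in the trained libraries, and fibronectin, Fn1, had 0.900, 0.790 and 834 CPM in the untrained and 1.74, 0.118 and 0.178 CPM in the trained libraries. Ly6a, a marker of fibro-adipogenic and endothelial cells, had 99.6, 0.0718 and 116 CPM untrained and no count trained. The endothelial cadherin Cdh5 had 102, 1.22 and 49.7 CPM in the untrained and 0.124, 0 and 0 CPM in the trained libraries, and the water channel Aqp1 had 155, 5.46 and 54.3 CPM in the untrained and 0, 0.118 and 0.134 CPM in the trained libraries. Untrained library 3 carried the level of Col1a2 and Fn1, and untrained libraries 1 and 3 that of Ly6a, Cdh5 and Aqp1, with untrained library 2 far lower in all 5. Without untrained libraries 1 and 3 the log2 difference was -0.29 in place of -8.69 for Fn1, -2.84 in place of -12.97 for Ly6a, -4.69 for Cdh5 and -5.74 for Aqp1. Also lower at an unadjusted p under 0.05 were Col6a1, Col6a3, Nid1 and Lum of the matrix, Esam and Emcn of endothelium, Kcnj8 and Higd1b of pericytes, and H2-D1 and Tap1, which serve antigen presentation. Of these, Col6a1, Emcn and Higd1b, like Col1a2, changed sign without untrained libraries 1 and 3, and Nid1 had no count in the 4 libraries left. Tendon markers were the 1 summed cell type that was lower in every trained library, with 35.0, 58.4 and 4521 CPM untrained and 0.516, 14.1 and 31.5 CPM trained (exact p = 0.1). How far carried-over cells set these levels was not tested.

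Several secreted factors known from exercise had few or no counts in trained fibres. Il15 had 1.02, 5.17 and 2.92 CPM untrained and no count trained (199 counts against 0, at least 37.9-fold lower, unadjusted p = 0.0237). Il6 had 2.28, 0 and 34.3 CPM untrained and 2 counts trained, a ratio of 380.3 with a counting interval of 105 to 3143 (unadjusted p = 0.0433). Untrained library 3 carried Il6, untrained library 2 had none, and without libraries 1 and 3 its log2 difference turned from -8.07 to 2.05. Fstl1 had 13.1, 5.89 and 406 CPM in the untrained and 0.249, 0.118 and 4.81 CPM in the trained libraries (unadjusted p = 0.0282), again highest in untrained library 3, and its log2 difference was -1.68 in place of -6.33 without untrained libraries 1 and 3. Of 17 tested genes of this list (22 listed) 11 were lower, with a median of -0.44, and of 0.04 without untrained libraries 1 and 3. Ddit4, which curbs growth signalling, had 5.46, 1.87 and 1.46 CPM untrained and no count trained (172 counts against 0, unadjusted p = 0.0170). Prkag2, a regulatory subunit of AMPK, had 8.64, 0.0718 and 5.36 CPM untrained and no count trained (347 counts against 0, log2 difference -9.03, unadjusted p = 0.0172). It was -2.84 without untrained libraries 1 and 3. Of 8 AMPK genes Prkag2 was the 1 lower without overlap, and Prkaa1, a catalytic subunit named after its values were seen, the 1 higher, beside 8.93% and 2.78% of all genes.

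**Figure D5:**
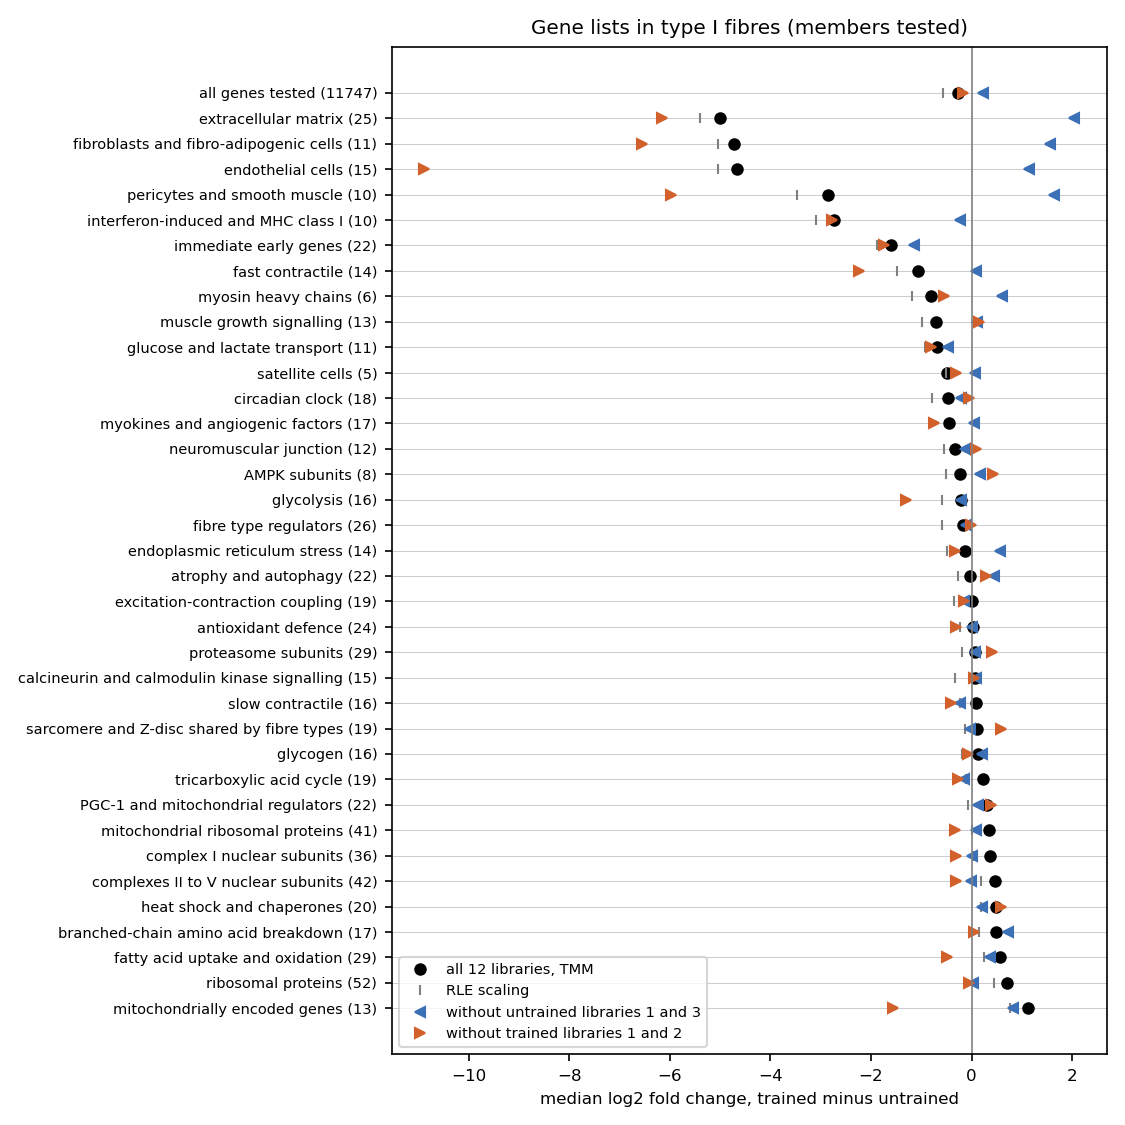
Median log2 fold change (trained minus untrained) of each gene list with at least 5 tested members (number in brackets) under all 12 libraries with TMM, with RLE size factors, and without 2 untrained or 2 trained libraries. Matrix, fibroblast and endothelial lists lie at -4.99, -4.72 and -4.67 and turn positive without untrained libraries 1 and 3, mitochondrially encoded genes turn from 1.13 to -1.56 without trained libraries 1 and 2, and immediate early genes stay between -1.88 and -1.15.

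The genes with the smallest p among those higher without overlap, with a mean of at least 5 CPM in one group, had differences between 2.08 and 7.58 fold. 2310002L09Rik, a gene of unassigned function in the tables used (ENSMUSG00000028396, chromosome 4, 73939371 to 73950846), had 73.2, 113 and 92.2 CPM in the untrained and 379.8, 163 and 325 CPM in the trained libraries, 3.28-fold higher (log2 difference 1.64 ± 0.53, unadjusted p = 0.00593). Ccng1, cyclin G1, a target of p53 (ENSMUSG00000020326, chromosome 11, 40748552 to 40755311), had 328, 307 and 241 CPM in the untrained and 823, 735 and 422 CPM in the trained libraries, 2.08-fold higher (unadjusted p = 0.0168). Yme1l1, the protease of the inner mitochondrial membrane (ENSMUSG00000026775, chromosome 2, 23156369 to 23199260), had 212, 212 and 197 CPM in the untrained and 1685, 382 and 230.1 CPM in the trained libraries (unadjusted p = 0.0180). Yme1l1 was far higher in trained library 1 than in the other two, and its log2 difference of 1.89 was 0.16 without trained libraries 1 and 2.

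Fundc2, an outer mitochondrial membrane protein, had 98.7, 120.5 and 122 CPM in the untrained and 230.2, 581 and 125 CPM in the trained libraries, and Tmem126b, an assembly factor of complex I, had 30.9, 19.8 and 41.1 CPM in the untrained and 409.7, 265 and 64.8 CPM in the trained libraries. Arl8b, a GTPase of lysosome transport, had 107, 114 and 87.5 CPM in the untrained and 515, 205 and 167 CPM in the trained libraries. Ank3, ankyrin G, had 116, 85.2 and 109 CPM in the untrained and 575, 130.3 and 211 CPM in the trained libraries, and Nkiras1, an inhibitor of NF-kappaB signalling, had 36.2, 51.2 and 42.4 CPM in the untrained and 323, 77.8 and 101 CPM in the trained libraries. Gm7607, a gene model of unassigned function in the tables used, had 9.84, 9.62 and 12.1 CPM in the untrained and 25.9, 37.9 and 122 CPM in the trained libraries. Unadjusted p ran from 0.0353 for Gm7607 to 0.0481 for Tmem126b in these 6 genes. Trained library 1 was the highest of all for 4 of them, library 2 for Fundc2 and library 3 for Gm7607. Without trained libraries 1 and 2 the log2 difference was 0.14 in place of 1.45 for Fundc2, 1.09 in place of 3.01 for Tmem126b, and 0.71 in place of 1.53 for Arl8b.

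Of the 10 lower genes chosen by the same rule, Mgp, Actb, Rgs5, Ly6a, Pvalb, Mylpf and Fosb are described above. Pla2g7, a secreted phospholipase (ENSMUSG00000023913, chromosome 17, 43568098 to 43612201), had 0.180, 8.19 and 19.9 CPM untrained and no count trained (866 counts against 0, at least 164.8-fold lower, unadjusted p = 0.00203). Ecm2, a matrix protein, had 4.26, 8.62 and 91.2 CPM untrained and no count trained (3628 counts against 0, unadjusted p = 0.00586). Gpx3, the secreted glutathione peroxidase (ENSMUSG00000018339, chromosome 11, 54902453 to 54910377), had 18.3, 10.6 and 54.7 CPM in the untrained and 0.124, 0.353 and 5.48 CPM in the trained libraries, 11.3-fold lower (log2 difference -3.78 ± 1.22, unadjusted p = 0.00605). All 3 genes were lower in every trained library, with untrained library 3 the highest. Without untrained libraries 1 and 3 the log2 difference was -9.46 for Pla2g7, -9.54 for Ecm2 and -2.32 for Gpx3.

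The training difference was set beside that of type IIb fibres, where edgeR called 0 of 11747 genes as well (0.0%). At an unadjusted p under 0.05, 6.87% of genes were higher and 1.35% lower in trained type IIb libraries, against 0.409% and 2.53% in type I. Libraries of the type IIb groups did not overlap for 2.82% (higher) and 1.92% (lower) of genes, together 4.73%. The median log2 difference over all genes was 0.36 in type IIb and -0.28 in type I fibres. The test of the difference between the 2 training effects called 0 genes (0.0%) in edgeR, with 113 genes at an unadjusted p under 0.05 in one direction and 937 in the other (8.94% of genes). Without type IIb trained library 3 these were 493 and 427, and the median difference turned from -0.68 to 0.18. Leaving out any other single library kept more genes in the second direction. That type IIb library held 508 CPM of endothelial markers (with Cd36), and the other type IIb libraries at most 15.5 CPM. The part of other cells was not tested. DESeq2 called 390 genes for that difference. Gpx3 went opposite ways, lower in type I and with 43.9, 59.3 and 98.9 CPM untrained and 328, 272 and 290.2 CPM trained in type IIb fibres (difference of log2 effects -5.92 ± 1.66, unadjusted p = 0.00214, adjusted p = 0.418, edgeR). 2310002L09Rik was higher in trained type I fibres and had 859, 513 and 753 CPM untrained and 444, 302 and 304 CPM trained in type IIb fibres (difference 2.66 ± 0.74, unadjusted p = 0.00202, adjusted p = 0.418, edgeR). Slc16a3 had 116, 42.2 and 58.6 CPM untrained and 49.4, 261 and 163 CPM trained there (difference -7.68 ± 1.95, adjusted p = 0.418, edgeR). In type IIb fibres the Gpx3 and 2310002L09Rik libraries did not overlap either, each in the direction opposite to type I.

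Immediate early genes had a median log2 difference of -0.82 in type IIb fibres, beside -1.60 in type I. The medians of all genes were 0.36 and -0.28, so the 2 list medians do not start from the same level. The median difference of the 2 effects was -1.35 over the list and -0.68 over all genes, and the list as a whole was not tested. For Egr1 the difference was -0.55 ± 0.98 (adjusted p = 1.00, edgeR), so a larger effect in either fibre type was not shown for this gene. Mitochondrially encoded genes had a median of 0.11 in type IIb and fast contractile genes one of 0.51, beside the 0.36 of all genes. Fibre type, muscle and digestion time (60 min for extensor digitorum longus, 90 min for soleus) differ together and cannot be told apart.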

How the data were processed

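RNA sequencing libraries of single-fibre preparations were grouped by their titles into trained and untrained type I and type IIb fibres, 3 libraries each. The deposited gene table holds raw read counts per gene and library. The authors also deposited FPKM values (counts scaled by gene length and library size), used here only for gene names and for levels compared between genes. Per the submitters' processing notes the tool was TopHat2 and the build mm10. The aligner version, counting tool and annotation were not given in the sources used here, and the library kit named per the labels' protocols does not mark strand. All columns of per-library values in the tables were mapped to a sample.

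Genes were kept with edgeR's filterByExpr (minimum count 10, minimum total 15, 11747 genes kept), scaled by TMM and tested with edgeR's quasi-likelihood test (edgeR 4.0.16, limma 3.58.1, R 4.3.3) in one fit of all 12 libraries, which share an estimate of spread, with Benjamini-Hochberg adjustment over all genes. Standard errors were taken as the absolute log2 difference over the root of F. One count was worth 0.0400 to 0.103 CPM of the library totals. Isoform shares and library sums were compared by exact two-sided permutation tests. Only the edgeR test of training in type I fibres was tried on simulated data with known changes, and the outcome is not used here. Alternatives were DESeq2 1.42.0, limma-voom, RLE size factors, no filter, no robust prior, a replicate block, only type I libraries and each library left out. Added after seeing the data were library totals without TMM and the fits without 2 untrained libraries (most markers of other cells) or 2 trained libraries (fewest genes).

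Named genes were the 10 per direction with the smallest unadjusted p among genes whose groups did not overlap and whose mean reached 5 CPM in one group, list members with an unadjusted p under 0.05, the 3 members of each list with the highest CPM (not all are printed), and Myh7, Myh2, Myh1, Myh4, Ppargc1a, Vegfa, Pdk4 and Cs. Further list members were named because their groups did not overlap, after their values were seen. The members and lists were chosen with earlier results of these data known. Coordinates of genes are those of the deposited table (mm10), with exon overlap from GENCODE release M21. Windows before gene starts come from RefSeq (GRCm38.p6). One list member is not reported here.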

Additional observations from a re-analysis of the deposited data

How the results depend on the processing

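Depth and library make-up limit these results: trained libraries 1 and 2 had the fewest genes detected (6082 and 6517), and 247 of the 297 lower genes had no more than 3 trained counts. For genes higher in trained type I fibres, DESeq2 and limma-voom called 1 gene each. For genes lower, DESeq2 called 58, limma-voom 3, edgeR with no low-count filter 7, and edgeR without the 2 trained libraries with fewest genes 1 (mt-Nd5). Leaving out single libraries gave 0 to 1 (Mgp, without untrained library 2). Calls were 0 with RLE size factors, library totals, no robust prior, only type I libraries and without the 2 untrained libraries. For the difference between fibre types DESeq2 called 390 genes, no filter 26, and leaving out single libraries 0 to 2. At an unadjusted p under 0.05 the split of higher and lower genes was 48 and 297, but 92 and 36 without the 2 trained libraries, 143 and 1564 with limma-voom and 307 and 971 with no filter.

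Whether replicate numbers pair the trained and untrained libraries is not given in the sources used here. Correlations of same-numbered deviations were -0.004, 0.061 and 0.124, and those of differently numbered ones ran from -0.135 to 0.053. With 3 libraries per group such values cannot show that pairing is absent. The fit with a replicate block called 0 genes in each direction and 0 for the difference between fibre types, with 26 higher and 308 lower at an unadjusted p under 0.05, and Ppargc1a was -0.34 in it.

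Of 2005 values of 126 named genes under the alternatives, 1958 kept direction and did not pass the threshold, 18 passed it and 29 changed sign. No gene had passed in the main fit, so the 1958 say little beyond direction. They include values with no adjusted p, such as those of Mgp and Rgs5 in DESeq2, which gave none for 753 of 11747 genes. Without the 2 trained libraries mt-Co3 was -0.93, Cox7a2 -0.40, Cox8b -0.21 and Cs -0.80. Without the 2 untrained libraries Il6 was 2.05, Sparc 0.0367, Col1a2 2.04, Col6a1 5.51, Emcn 2.05, Higd1b 2.05, Myh1 0.95 and Ppargc1a -0.32. Ppargc1a was -0.22 with DESeq2 and RLE, -0.0378 with no filter and -0.12 with library totals. Cs was -0.24 with DESeq2 and RLE, -0.14 with limma-voom and -0.29 with library totals. Ndufb6, a complex I gene, was -0.0562 with DESeq2 and RLE and -0.0466 with library totals. Leaving out single libraries moved Myh1 between -6.35 and 1.45, Ppargc1a between -0.28 and 0.26 and Cs between -0.28 and 0.42. The difference in genes detected was -3797 at 10 counts, -2330 at 1 count and -3347 at 1 CPM. The cause of these changes was not tested.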

Other observations

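Lists not described above showed few genes that separated the groups. Of 17 tested genes of branched-chain amino acid breakdown 13 were higher, with a median log2 difference of 0.49 (0.77 relative to all genes). Hibch, a hydrolase of valine breakdown, was higher without overlap and Bckdk, the kinase that restrains this pathway, lower, beside 2.78% and 8.93% of all genes. Of 24 antioxidant genes Cat (catalase) and Txn1 (thioredoxin) were higher and Gpx3 lower without overlap, beside the same 2.78% and 8.93%, and the median was 0.02 (0.31 relative to all genes). Cat had 234, 284 and 294 CPM in the untrained and 994, 364 and 402 CPM in the trained libraries. Trained library 1 was the highest, and the untrained values lay close together. Bckdk and Txn1, like the members named below, were chosen after their values were seen. None of these genes except Gpx3 had an unadjusted p under 0.05.

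Regulators of fibre type (26 tested, median -0.18) and genes of endoplasmic reticulum stress (14 tested, median -0.13) held no gene without overlap. Among 15 genes of calcineurin and calmodulin kinase signalling Camk2a and Calm3 were lower without overlap, beside 8.93% of all genes. Among 12 tested genes of the neuromuscular junction Chrne (an acetylcholine receptor subunit) and Ache (acetylcholinesterase) were lower without overlap, again beside 8.93%, with a median of -0.32, close to that of all genes. Mitochondrial ribosomal genes had 29 of 41 higher and a median of 0.34, or 0.62 relative to all genes (0.57 under RLE, -0.15 without untrained libraries 1 and 3).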
